A study of Mus musculus with 6 samples.

Results

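The expression and splicing of 7 enzymes of cholesterol synthesis (Hmgcs1, Idi1, Fdft1, Sqle, Lss, Cyp51 and Dhcr7) and of Srebf2, the gene of a transcription factor that acts on this pathway, were examined in mouse hippocampus. The 8 genes were taken by symbol from a table of 52550 genes, of which 17621, with all 8 among them, had enough reads to be tested. The set was labelled as genes of cholesterol synthesis and uptake, but none of the 8 is an uptake gene, so it is described here as the synthesis genes and Srebf2.

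The study asked how loss of L-DL, the longer form of an RNA-binding protein of nuclear speckles that Hnrnpdl encodes (hnRNP D-like), alters RNA splicing in the brain. Male wild-type C57BL/6 J mice had received adeno-associated virus (AAV) with control shRNA (CTRL, 3 libraries, labelled wild type) or L-DL shRNA (L-DL KD, 3 libraries) in both CA1 areas at 8 weeks of age. Polyadenylated RNA of the hippocampus was sequenced, and the interval between injection and RNA extraction is not given in the sources used here. Gene counts totalled 16052529 to 16995425 per CTRL library and 16525467 to 17913064 per L-DL KD library.

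All mice of both groups therefore carried a virus and had undergone surgery. In the L-DL virus, 4 shRNAs in tandem were each driven by the H1 promoter, which is active in most cell types, while the green marker zsGreen was under the neuronal CamkIIα promoter. The control virus was injected at a higher titre than the L-DL virus. The sample labels use both knockout and knockdown for these mice. The whole hippocampus was sampled, so cells outside the injected area contributed to each library.

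The targeted gene was measured first. Hnrnpdl (ENSMUSG00000029328) stood at 176, 184 and 171 CPM (counts of a gene relative to all counts of its library, scaled by TMM) in CTRL replicates 1 to 3 and at 217, 150.3 and 173 CPM in L-DL KD replicates 1 to 3. The groups overlapped, and the log2 fold change of L-DL KD over CTRL was 0.03 (SE 0.12, adjusted p = 0.898 by edgeR's quasi-likelihood test). Its sign turned without CTRL replicate 3 (-0.00081) and without L-DL KD replicate 1 (-0.13). Gene counts do not separate the long isoform from the others. The counts thus did not show the loss that the label names, and they cannot test it for the long isoform alone. The paper assessed the knockdown of L-DL protein in the hippocampus by immunoblotting. Libraries with this label are called the L-DL KD-labelled libraries below.

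Cell type markers differed between the groups, and a bulk library cannot tell fewer cells of a type from less RNA per cell. The summed level of 12 microglia markers was 1453 to 1808 CPM in CTRL and 3086 to 4020 CPM in the L-DL KD-labelled libraries, and 12 of 12 were higher. That of 12 neuron markers was 9902 to 10451 CPM in CTRL and 5994 to 7002 CPM in the L-DL KD-labelled libraries, and 11 of 12 were lower. The 12 astrocyte markers summed to 8390 to 8524 CPM and 6529 to 7737 CPM, with 2 higher and 5 lower, and the 12 oligodendrocyte markers to 8442 to 9024 CPM and 7183 to 10617 CPM, with 2 higher and 1 lower. All 4 markers of oligodendrocyte precursors were higher (172 to 183 CPM against 262 to 346 CPM), as were 4 of 8 endothelial markers (324 to 361 CPM against 368 to 427 CPM). The 6 choroid plexus markers ranged widely within both groups, from 438 to 4616 CPM in CTRL and from 30.1 to 5165 CPM in the L-DL KD-labelled libraries, and 0 of 6 were called. No marker of any list was at 0 over all libraries. The part of these differences in the results on the synthesis genes was not tested.

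Cholesterol in the brain is made within the brain itself, since lipoproteins of the blood do not pass the blood-brain barrier. Synthesis starts from acetyl-CoA, passes through mevalonate and the isoprenoid units to squalene, and closes the rings of squalene to give lanosterol, which further steps convert to cholesterol. SREBP2, the product of Srebf2, is held in the endoplasmic reticulum when sterols are plentiful. When they are scarce it is cleaved, enters the nucleus and binds sterol regulatory elements in the promoters of genes of the pathway. Astrocytes and myelinating oligodendrocytes are known as strong producers of cholesterol in the brain, and microglia and neurons also express the pathway.

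Promoter sequence was available for 6 of the 8 genes in a RefSeq table for GRCm38.p6, in windows from 250 bases before to 50 bases after a start site (8 windows, 3 of them of Dhcr7). Windows were searched on both strands for the sterol regulatory element letters TCACNCCAC, the CCAAT box CCAAT and the GC box GGGCGG. The element was found in 1 of the 6 genes, Hmgcs1, as TCACCCCAC at position -137 from the start, and 1.24% of 32851 windows of this length hold it. Its first 8 letters, TCACNCCA, a form added once the sequences had been seen, also occur in Srebf2, as TCACCCCA at position -162, and in 4.36% of all windows. No window of Idi1, Lss, Cyp51 or Dhcr7 held these letters on either strand. CCAAT was found in 4 places in the window of Hmgcs1, 2 in that of Idi1, 2 in 1 of the 3 windows of Dhcr7 (0 in the other two) and 1 in those of Srebf2, Lss and Cyp51, and 37.4% of all windows hold it. GGGCGG was found in 5 places in the window of Srebf2, 3 in that of Hmgcs1, 3, 1 and 0 in those of Dhcr7, 2 in that of Lss and 1 in those of Idi1 and Cyp51, and 35.7% of all windows hold it. The upstream stretches of Hmgcs1 (chr13:119690101-119690350, plus strand) and Srebf2 (chr15:82147019-82147180, plus strand) are shown because they are the windows with the element or its first letters. They end before the annotated gene, and capitals mark each match to a motif, with CCAAT read as ATTGG and GGGCGG as CCGCCC on the other strand.
Hmgcs1: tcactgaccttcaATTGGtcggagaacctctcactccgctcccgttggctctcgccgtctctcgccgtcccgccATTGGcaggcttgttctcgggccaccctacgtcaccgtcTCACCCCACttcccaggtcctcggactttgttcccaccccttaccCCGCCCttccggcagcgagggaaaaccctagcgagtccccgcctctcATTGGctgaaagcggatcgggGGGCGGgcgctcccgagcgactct
Srebf2: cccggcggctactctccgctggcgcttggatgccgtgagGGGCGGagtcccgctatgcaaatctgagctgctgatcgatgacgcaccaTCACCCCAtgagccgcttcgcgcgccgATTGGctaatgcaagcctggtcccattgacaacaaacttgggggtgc
A match is a description of the letters, and binding was not measured here.

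Of the 8 genes, 2 were lower in the L-DL KD-labelled libraries (Idi1 and Srebf2) and 0 were higher at an adjusted p under 0.05 (edgeR, Benjamini-Hochberg over all genes tested). Over all genes 30.5% were called in either direction, 15.6% higher and 15% lower, so the share of the 8 genes called, 25.0%, is near the background. At an unadjusted p under 0.05, 3 were lower and 0 higher. DESeq2 and limma-voom also called 2 lower and 0 higher. The log2 fold changes ran from -0.60 to 0.24 with a median of -0.06, where that of all genes was 0.01. In 2 genes every L-DL KD-labelled library lay below every CTRL library and in 1, Sqle, above, while the groups lay apart in 47.2% of all genes, 23.4% below and 23.8% above.

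**Figure D1:**
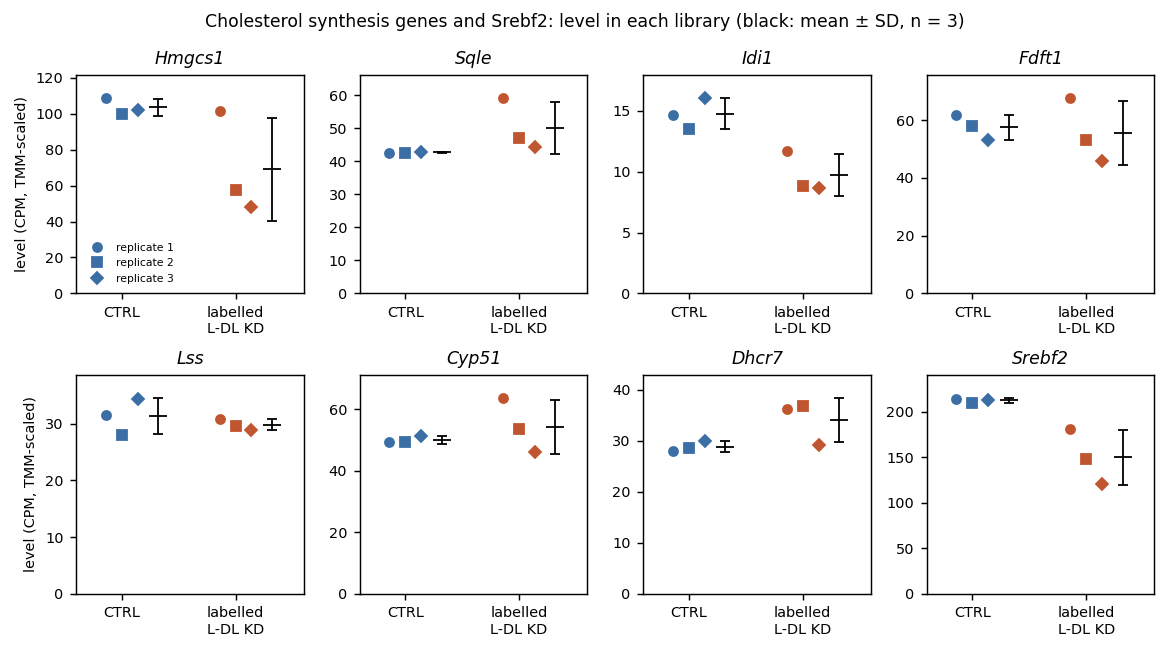
Level of each of the 8 genes in CPM (TMM-scaled, linear axes from 0) in the 3 CTRL libraries (blue) and the 3 L-DL KD-labelled libraries (orange), with symbols for the replicate number and, in black, the mean ± SD of each group. Idi1 and Srebf2 lie below all CTRL libraries, and Hmgcs1 runs from 102 to 48.0 CPM among the L-DL KD-labelled libraries.

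Srebf2 (ENSMUSG00000022463, chr15:82147181-82205379, plus strand, GRCm38) is the regulator of the set. It stood at 214, 209.7 and 213 CPM in CTRL replicates 1 to 3 and at 181, 148 and 121 CPM in L-DL KD replicates 1 to 3. All 3 L-DL KD-labelled libraries were lower than all CTRL libraries, and they were spread from 85.1% to 56.8% of the CTRL mean. The mean fell from 212 ± 2.40 to 150 ± 30.1 CPM (SD, n = 3), and the log2 fold change was -0.50 (SE 0.13, 95% interval -0.80 to -0.20, edgeR adjusted p = 0.0220). The direction was kept with each library left out, but the call was lost without CTRL replicate 1 (adjusted p = 0.0695), CTRL replicate 2 (0.0611), CTRL replicate 3 (0.0681) or L-DL KD replicate 2 (0.0675). The change was -0.66 without L-DL KD replicate 1.

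Hmgcs1 (ENSMUSG00000093930, chr13:119690379-119708260, plus strand) encodes HMG-CoA synthase, which joins acetyl-CoA and acetoacetyl-CoA ahead of mevalonate. It stood at 109, 99.8 and 102 CPM in CTRL and at 102, 57.5 and 48.0 CPM in the L-DL KD-labelled libraries. Replicate 1 of the latter lay within the CTRL range, at 98.0% of the CTRL mean, while replicates 2 and 3 were at 55.5% and 46.3%. The means were 104 ± 4.63 and 69.0 ± 28.6 CPM (SD, n = 3), the widest relative spread of the 8 genes. The log2 fold change was -0.59 (SE 0.24, 95% interval -1.14 to -0.03) and did not pass the test (edgeR adjusted p = 0.104). Without L-DL KD replicate 1 it was -0.97 and passed (adjusted p = 0.000109). It also passed without the filter on low counts (adjusted p = 0.0301).

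Idi1 (ENSMUSG00000058258, chr13:8885501-8892451, plus strand) encodes isopentenyl diphosphate isomerase, which interconverts the isoprenoid units. It stood at 14.7, 13.5 and 16.1 CPM in CTRL and at 11.7, 8.86 and 8.64 CPM in the L-DL KD-labelled libraries, and the groups did not overlap. It was counted with the fewest reads of the 8 genes, 145 to 253 per library. Its mean fell from 14.8 ± 1.27 to 9.75 ± 1.73 CPM (SD, n = 3), with a log2 fold change of -0.60 (SE 0.16, 95% interval -0.96 to -0.23, edgeR adjusted p = 0.0236). The call was lost without CTRL replicate 1 (adjusted p = 0.0704), CTRL replicate 3 (0.0892), L-DL KD replicate 2 (0.0780) or L-DL KD replicate 3 (0.0681), and the direction was kept each time.

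Fdft1 (ENSMUSG00000021273, chr14:63145150-63179578, minus strand), squalene synthase, commits isoprenoids to sterols. It stood at 61.7, 58.0 and 53.1 CPM in CTRL and at 67.7, 53.2 and 45.8 CPM in the L-DL KD-labelled libraries, which lay on both sides of the CTRL range. The log2 fold change was -0.05 (95% interval -0.37 to 0.27, edgeR adjusted p = 0.813), and its sign turned to 0.073 without L-DL KD replicate 3. Of its exons, 774 nt (18.3%) are shared on the opposite strand with Ctsb, a lysosomal protease gene with 20765 to 25641 counts in CTRL and 31955 to 42178 in the L-DL KD-labelled libraries. Whether the counting used strand is not given in the sources used here, so reads of the 2 genes in this overlap cannot be told apart. The same holds for smaller stretches of Hmgcs1 (557 nt, 12.1% of its exons), Idi1 (323 nt, 9.22%), Cyp51 (166 nt, 3.76%) and Lss (381 nt, 3.53%) that overlap genes on the opposite strand.

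Sqle (ENSMUSG00000022351, chr15:59315077-59331192, plus strand) encodes squalene epoxidase, a rate-limiting enzyme. It stood at 42.6, 42.6 and 43.0 CPM in CTRL and at 59.2, 47.0 and 44.3 CPM in the L-DL KD-labelled libraries. All 3 of the latter lay above CTRL, replicate 3 by less than 2 CPM. The log2 fold change was 0.23 (SE 0.11, 95% interval -0.03 to 0.49) and did not pass the test (edgeR adjusted p = 0.154), and it was 0.10 without L-DL KD replicate 1.

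Lss (ENSMUSG00000033105, chr10:76531588-76557138, plus strand), lanosterol synthase, closes the rings. It stood at 31.6, 28.1 and 34.4 CPM in CTRL and at 30.9, 29.6 and 29.0 CPM in the L-DL KD-labelled libraries, all within the CTRL range. It had the narrowest interval of the 8 genes, a log2 fold change of -0.07 (95% interval -0.30 to 0.16, edgeR adjusted p = 0.633).

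Cyp51 (ENSMUSG00000001467, chr5:4081145-4104746, minus strand) encodes the demethylase that acts on lanosterol. It stood at 49.3, 49.2 and 51.4 CPM in CTRL and at 63.6, 53.5 and 46.0 CPM in the L-DL KD-labelled libraries, of which 2 lay above and 1 below the CTRL range. The log2 fold change was 0.12 (95% interval -0.14 to 0.39, edgeR adjusted p = 0.465), and it was -0.0040 without L-DL KD replicate 1.

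Dhcr7 (ENSMUSG00000058454, chr7:143823145-143848410, plus strand) encodes the reductase of a last step to cholesterol. It stood at 27.9, 28.5 and 29.97 CPM in CTRL and at 36.3, 36.7 and 29.1 CPM in the L-DL KD-labelled libraries, with replicate 3 inside the CTRL range. The log2 fold change was 0.24 (SE 0.11, 95% interval -0.01 to 0.50, edgeR adjusted p = 0.136). Without L-DL KD replicate 3 it was 0.35 and passed the test (adjusted p = 0.0335).

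The L-DL KD-labelled libraries differed among themselves in the same order for nearly all of these genes. Replicate 1 was the highest of the 3 in 7 of 8 genes (Dhcr7 was highest in replicate 2), against 38.2% of all genes. Replicate 3 was the lowest in 8 of 8, against 34.9% of all genes. The coefficient of variation was larger in the L-DL KD-labelled libraries than in CTRL for 7 of 8 genes, with Lss the exception, and for 65.5% of all genes. It reached 41.4% for Hmgcs1 (4.47% in CTRL), and the highest of the 3 libraries of Srebf2 was 1.5 times the lowest (1.02 times in CTRL). The summed markers of 3 cell types ran in the same order over L-DL KD replicates 1 to 3: choroid plexus at 5165, 116 and 30.1 CPM, oligodendrocytes at 10617, 9113 and 7183 CPM, and neurons at 7002, 6701 and 5994 CPM. Those of microglia and astrocytes ran in the opposite order, at 3086, 3649 and 4020 CPM for microglia and 6529, 7720 and 7737 CPM for astrocytes. Those of oligodendrocyte precursors (282, 346 and 262 CPM) and endothelial cells (399, 368 and 427 CPM) ran in neither order. The part of these cell types in the spread of the synthesis genes was not tested.

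**Figure D2:**
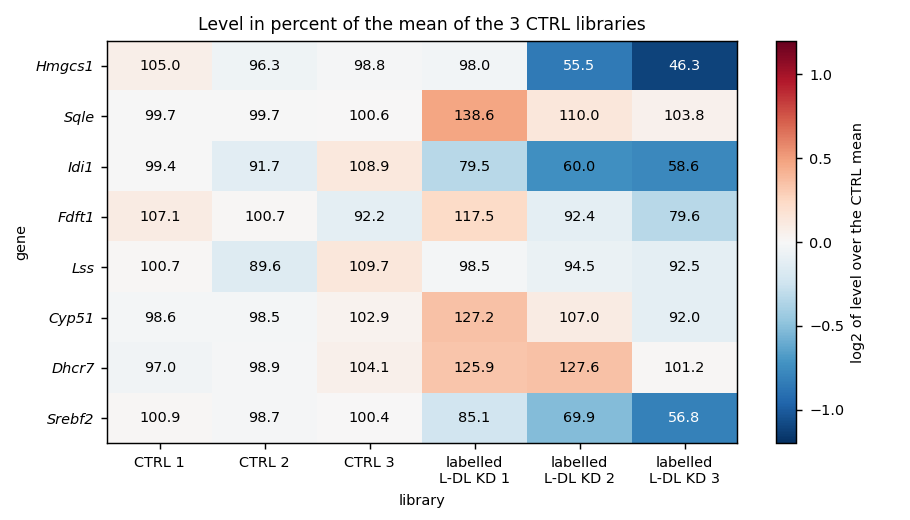
Level of each gene (rows) in each library (columns) in percent of the mean of the 3 CTRL libraries, with the colour giving the log2 of the same ratio. CTRL entries run from 89.6% to 109.7%, while L-DL KD replicate 3 is the lowest of its group in every row and Hmgcs1, Idi1 and Srebf2 are its lowest entries at 46.3%, 58.6% and 56.8%.

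**Figure D3:**
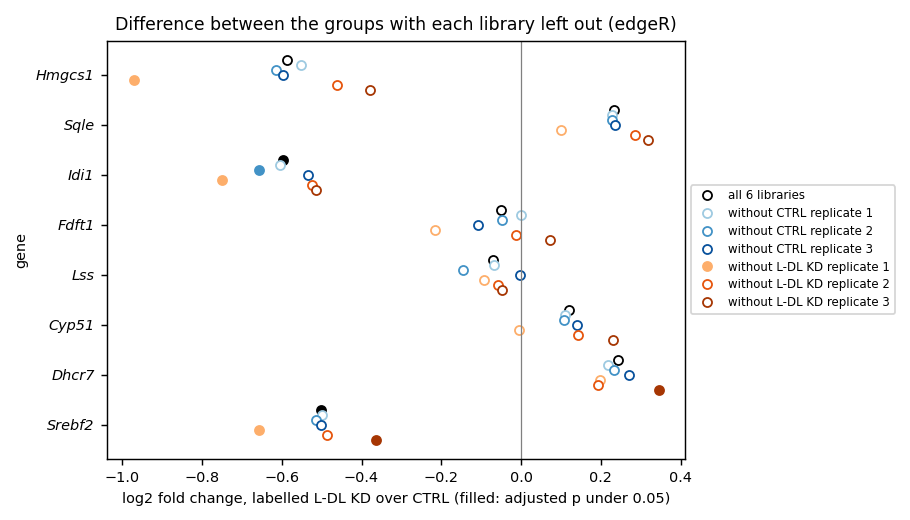
Log2 fold change of each gene with all 6 libraries (black) and with each library left out (colours), filled where the edgeR adjusted p was under 0.05. Hmgcs1 moves from -0.59 to -0.97 without L-DL KD replicate 1, and Fdft1 and Cyp51 lie on both sides of 0.

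Levels were set against each other per kilobase of annotated exon, since longer transcripts yield more reads. In CTRL the order was Srebf2 (29.6 ± 0.335 CPM per kb, SD, n = 3), Hmgcs1 (22.6 ± 1.01), Fdft1 (13.6 ± 1.02), Cyp51 (11.3 ± 0.283), Sqle (7.70 ± 0.0414), Dhcr7 (4.95 ± 0.183), Idi1 (4.21 ± 0.362) and Lss (2.90 ± 0.292), all in CPM per kb. No neighbours in this order overlapped between CTRL libraries. In the L-DL KD-labelled libraries the means kept this order, at 20.9 ± 4.19 CPM per kb for Srebf2 and 2.76 ± 0.0890 for Lss, but the neighbouring ranges overlapped except between Sqle and Dhcr7 and between Dhcr7 and Idi1. The lengths count every annotated exon of a gene once, 10787 nt for Lss and 3505 nt for Idi1, so a gene with long untranslated or noncoding exons is set low.

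The genes around the 8 were grouped by their place in the pathway, as 46 genes in 6 lists chosen with earlier results of these data known. Over all 46, 9 were higher and 5 lower, or 30.4% called against 30.5% of all genes, with a median log2 fold change of 0.04. Without L-DL KD replicate 1, 10 were higher and 11 lower. Without CTRL replicate 1 or CTRL replicate 3, 8 were higher and 3 lower. Some genes of the pathway are not reported here.

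Among 6 further genes of the mevalonate and isoprenoid steps (Acat2, Mvk, Pmvk, Mvd, Fdps, Ggps1), edgeR called 0, and 0 had an unadjusted p under 0.05. DESeq2 and limma-voom also called 0. Their log2 fold changes lay between -0.16 and 0.09. Fdps, farnesyl diphosphate synthase, had only 8 to 19 counts per library and the widest 95% interval of these genes, from -0.87 to 1.02 on the log2 scale. Of 8 genes of the later sterol steps, 1 was lower and 0 higher (1 higher by DESeq2 and 0 by limma-voom). At an unadjusted p under 0.05 in edgeR, 1 was higher and 2 were lower. The gene called lower was Tm7sf2, a sterol reductase, at 14.1 ± 1.28 CPM in CTRL and 8.62 ± 1.41 CPM in the L-DL KD-labelled libraries (log2 fold change -0.71, edgeR adjusted p = 0.0117). Its call was lost without CTRL replicate 1 (adjusted p = 0.0520).

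A list of 6 SREBP regulators held Scap, Insig1, Insig2, Mbtps1, Mbtps2 and Srebf1, which itself encodes an SREBP. Of these, 1 was lower and 0 higher by edgeR, 2 lower and 0 higher by DESeq2, and 1 lower and 0 higher by limma-voom. At an unadjusted p under 0.05 in edgeR, 2 were lower and 1, Srebf1, was higher. Insig2, which helps to hold SREBPs in the endoplasmic reticulum, fell from 54.5 ± 2.18 to 45.1 ± 0.745 CPM (log2 fold change -0.27, edgeR adjusted p = 0.0186). Its call was lost without CTRL replicate 1 (adjusted p = 0.0702), CTRL replicate 3 (0.0696) or L-DL KD replicate 2 (0.0504). Insig1, the other such anchor, stood at 41.3, 43.6 and 38.4 CPM in CTRL and at 39.3, 23.0 and 21.8 CPM in the L-DL KD-labelled libraries. Like Hmgcs1, it lay within the CTRL range in replicate 1 only and did not pass the test (log2 fold change -0.55, edgeR adjusted p = 0.0848). Of 9 SREBP targets in fatty acid synthesis, 1 was lower and 0 higher (1 higher by DESeq2, 0 by limma-voom, and 2 at an unadjusted p under 0.05). Elovl6, a fatty acid elongase, fell from 68.6 ± 7.35 to 44.3 ± 8.07 CPM (log2 fold change -0.63, edgeR adjusted p = 0.0120). Its call was lost without CTRL replicate 3 (adjusted p = 0.0514).

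Of the genes of uptake and transport 57.1% were called, and of those of efflux, storage and turnover 70.0%, beside 30.5% of all genes. Both lists were chosen with earlier results of these data known, so these shares are no test of the pathway. Of 7 genes of uptake and intracellular transport, 4 were higher and 0 lower (1 lower by DESeq2, 0 by limma-voom, and 1 at an unadjusted p under 0.05), with a median log2 fold change of 0.33. Lrp1, a receptor that takes up lipoproteins, rose from 715 ± 38.1 to 1240 ± 57.4 CPM (log2 fold change 0.79, edgeR adjusted p = 0.000324). Lrp8, a receptor of the same family, and Npc2 and Npc1, which export cholesterol from lysosomes, had log2 fold changes of 0.33, 0.48 and 0.33 (adjusted p = 0.00654, 0.00808 and 0.0345 in that order). The call of Npc1 was lost without CTRL replicate 1, CTRL replicate 2, CTRL replicate 3 or L-DL KD replicate 2 (adjusted p = 0.118, 0.119, 0.0541 and 0.0827), and its change without the last was 0.24.

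Of 10 genes of efflux, storage and turnover, 5 were higher and 2 lower, with a median log2 fold change of 0.52. Abca1, the transporter that loads cholesterol onto apolipoproteins, stood at 170.0, 162 and 164 CPM in CTRL and at 338, 444 and 478 CPM in the L-DL KD-labelled libraries (log2 fold change 1.35, SE 0.12, edgeR adjusted p = 0.000292). Apod, a lipid-binding apolipoprotein, rose from 420 ± 22.7 to 1370 ± 97.3 CPM (log2 fold change 1.71, adjusted p = 7.26e-05). Abcg1, a further exporter, Mylip, a ubiquitin ligase of lipoprotein receptors, and Lpl, lipoprotein lipase, had log2 fold changes of 0.87, 0.88 and 0.94 (edgeR adjusted p = 0.00053, 0.000449 and 0.0061 in that order). The 2 lower genes were Abcg4, an exporter, and Cyp46a1, the neuronal enzyme that hydroxylates cholesterol for its removal from the brain, with log2 fold changes of -0.54 and -0.60 (edgeR adjusted p = 0.0107 and 0.00328). Microglia express Abca1, Abcg1 and Lpl, and the summed microglia markers were 2.12 times as high in the L-DL KD-labelled libraries, while the neuron markers were at 0.645 of CTRL. Their part in these changes was not tested.

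**Figure D4:**
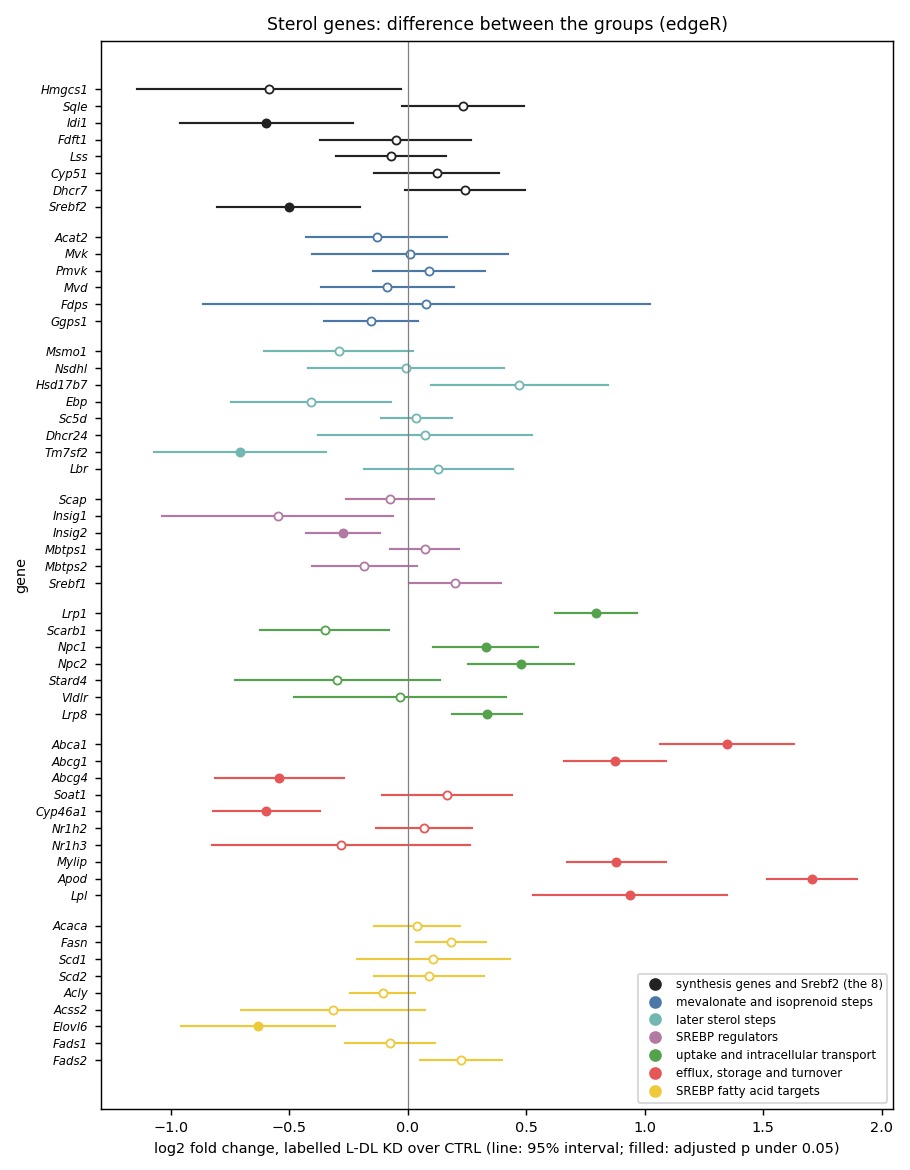
Log2 fold change of the L-DL KD-labelled libraries over CTRL for the 8 genes (black) and 46 other genes of sterol metabolism grouped by list (colours), with 95% intervals and filled points where the edgeR adjusted p was under 0.05. Filled points to the right of 0 lie in the lists of uptake and transport (4 of 7) and of efflux, storage and turnover (5 of 10). The 8 genes, Srebf2 among them, have 2 filled points, both to the left.

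By Pearson correlation of log2(CPM + 0.1) over the 6 libraries with the mean of the 8 standardized genes, the 5 most similar genes were Dnah6 (r = 0.993), Spag16 (0.993), Gm5577 (0.991), Ccdc187 (0.989) and Spag6l (0.989). The 8 genes themselves correlated with this mean at 0.35 (Dhcr7) to 0.87 (Fdft1). Of their 28 pairs, 21 correlated positively, with a median r of 0.413 over all pairs, so the mean is not a profile that all 8 share. Dnah6 stood at 10.9, 6.30 and 12.5 CPM in CTRL and at 24.2, 6.95 and 2.68 CPM in the L-DL KD-labelled libraries, and it did not differ between the groups by the test (edgeR adjusted p = 0.856). After the mean of each group was subtracted, the 5 most similar genes were Fndc1, Dgkb, Slain1, Armcx2 and Tnks1bp1 (r = 0.9973 to 0.9996). These values describe 6 libraries, were taken as the highest of 17621 genes and share the spread among the L-DL KD-labelled libraries, so they carry no p-value.

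Splicing was examined through the junction counts of 40961 events in 10911 genes, of which 12 events lay in 5 of the 8 genes (3 in Hmgcs1, 1 in Sqle, 2 in Fdft1, 4 in Lss and 2 in Dhcr7). No event was listed for Idi1, Cyp51 or Srebf2. Of the 12 events, 6 had enough reads of both forms to be tested. At an adjusted p under 0.05, 0 of the 6 were called by edgeR and 0 by limma, where 0.255% of 18829 events were called by edgeR. At an unadjusted p under 0.05 the count was 0 of 6 by both tests, where 13.3% of all events passed in edgeR. PSI, the share of transcripts that include a segment, was computed from junction counts and effective lengths, and the replicates of the splicing table carry no numbers and are called a, b and c.

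**Figure D5:**
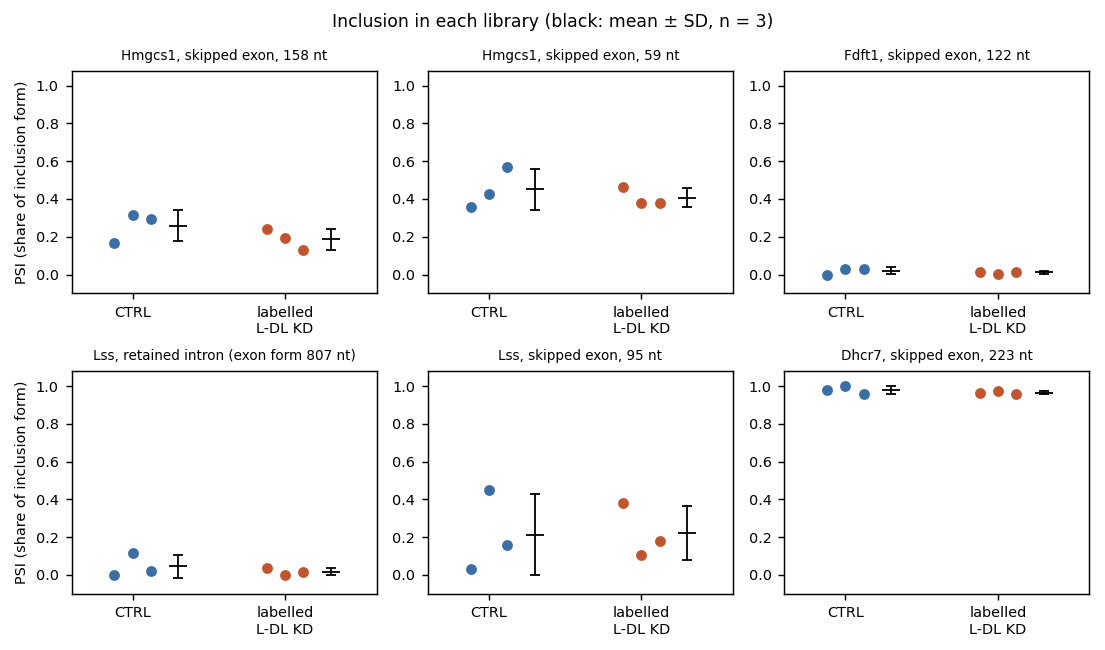
PSI (0 to 1) of the 6 tested events in libraries a, b and c of CTRL (blue) and of the L-DL KD-labelled libraries (orange), with the mean ± SD of each group in black. The groups overlap in each of the 6 panels.

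In Hmgcs1, 2 forms of a skipped exon in the untranslated region ahead of the coding sequence were tested. The longer form, 158 nt (chr13:119694890-119695047, exon 2 of an annotated transcript), had a PSI of 0.167, 0.315 and 0.295 in CTRL and 0.240, 0.193 and 0.129 in the L-DL KD-labelled libraries. The means were 0.259 ± 0.0805 and 0.188 ± 0.0555 (SD, n = 3) on 48 to 168 junction counts per library, and the difference did not pass the test (edgeR adjusted p = 0.729). The shorter form, 59 nt (chr13:119694989-119695047, exon 2 of another), had means of 0.452 ± 0.109 and 0.407 ± 0.0499 (edgeR adjusted p = 0.882) and shares its skipping reads with the longer one. The skipping counts of both were 68 to 100 in CTRL and 37 to 103 in the L-DL KD-labelled libraries.

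In Fdft1, a 122-nt exon (chr14:63159238-63159359) that the annotation places in a transcript subject to nonsense-mediated decay had a mean PSI of 0.0205 ± 0.0178 in CTRL and 0.0106 ± 0.00618 in the L-DL KD-labelled libraries (edgeR adjusted p = 0.720). In Dhcr7, a 223-nt coding exon (chr7:143837762-143837984) had a mean PSI of 0.978 ± 0.0216 and 0.966 ± 0.00966 (edgeR adjusted p = 0.868). In Lss, a 95-nt exon (chr10:76537569-76537663) and a retained intron (chr10:76535559-76536365), both of a noncoding transcript, rested on 14 to 31 junction counts per library. The PSI of the 95-nt exon ran from 0.0313 to 0.450 in CTRL and from 0.105 to 0.380 in the L-DL KD-labelled libraries (edgeR adjusted p = 0.988). The smallest difference that could have been detected was not computed. Of the 6 untested events, 5 showed 1 form nearly alone, with mean PSI of at least 0.973 or at most 0.0028 in both groups. The other, a retained intron of Lss (chr10:76544465-76545501), had mean PSI of 0.0964 and 0.0795 on 11 to 25 counts.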

How the data were processed

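The authors deposited raw counts of reads per Ensembl gene (GRCm38), without normalization, and the rMATS table of inclusion and skipping junction counts for 5 event types. The submitters' processing notes name HISAT2 (2.1.0), HTSeq (0.6.1) and Bowtie (1.1.2) without roles. The authors' own splicing comparisons (p-values, FDR, PSI differences) were not used. In the splicing table the first sample was read as L-DL KD, after the sign of the PSI difference that the methods define.

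Gene symbols were matched for 52403 of 52550 rows. A gene was kept where 3 or more libraries had 10 or more counts. TMM scaling and the quasi-likelihood test of edgeR (4.0.16) in R (4.3.3) followed, with Benjamini-Hochberg adjustment over the 17621 genes kept. Splicing events that averaged 20 or more counts a library, and 1 or more of either form, were tested with edgeR on both forms in each library. Both were also run on simulated data with few changed genes or events, which does not show how they perform on these data. Alternatives were DESeq2 (1.42.0), limma (3.58.1), other scalings and filters, a replicate block and each library left out. Intervals are 95%.

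The 8 genes and all lists were chosen with earlier results of these data known. Named genes were the 8, Hnrnpdl, called list members and the 5 most similar by each measure. All genes of the mevalonate and isoprenoid steps and of the SREBP regulators were named as well. Insig1, Fdps, Srebf1 and the genes overlapping the 8 were named after their values were seen. Exons, positions and overlaps are from GENCODE M21, promoters from RefSeq. The labels do not say that each replicate was a separate mouse, so p-values measure the spread between these samples. Some genes of the pathway are not reported here.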

Additional observations from a re-analysis of the deposited data

How the results depend on the processing

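Of the 8 genes, Srebf2 among them, 2 were called in all other tests and scalings. The count was 3 without the filter on low counts and 3 with the replicate block (Hmgcs1 added, adjusted p = 0.0441 by edgeR). With 1 library left out it was 0 to 3. It was 0 without CTRL replicate 1, CTRL replicate 3 or L-DL KD replicate 2, and 1 without CTRL replicate 2. Without L-DL KD replicate 1 it was 3. Leaving out a library leaves fewer samples, and further causes were not tested. Over all genes the count of 5379 became 3498 to 6477 with 1 library left out and 4635 with the replicate block. Over the 46 other genes of sterol metabolism it was 14, 11 to 21 with 1 library left out, 18 with DESeq2 and 13 with the block (Npc1 lost, adjusted p = 0.0534). Same-numbered samples did not pair, since their deviations from the group means correlated at 0.0525, 0.125 and -0.105, and the block changed no other call of these genes. Hnrnpdl ranged from -0.13 to 0.15 on the log2 scale with 1 library left out, and reversed to -0.00081 and -0.13. Fdft1 ranged from -0.21 to 0.073, reversed without L-DL KD replicate 3, and Cyp51 from -0.0040 to 0.23, reversed without L-DL KD replicate 1. Scaling by library size gave 3052 genes higher and 2392 lower, against 2743 and 2636 with TMM, and marker ratios moved by less than 1 SD. In splicing, 0 events of the 8 genes were called under the other filters, with limma and with each library left out (4 to 7 events tested, smallest unadjusted p = 0.0572). Limma and the fit without CTRL library c called 0 of all events, and the other fits with 1 library left out called 3 to 52, so these counts of 0 say nothing of stability. The tested events of Lss rested on 14 to 31 junction counts per library.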
